A study of Homo sapiens with 15 samples.

Results

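The sites described here are peaks of WBM-MYC, a form of MYC deficient in binding WDR5, that no single peak of wild-type MYC (WT-MYC) matched by width. They were chosen by the coordinates of the 2 MYC lists alone: a WBM-MYC peak was kept as unmatched when no single WT-MYC peak covered at least 50% of its width. Of the 690 WBM-MYC peaks, 222 were unmatched (32.2%) and 468 were matched. Because these coordinates chose them, the number of unmatched peaks and their distances to WT-MYC are given as descriptions, without a test. WDR5 peaks played no part in the choice.

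The data are chromatin immunoprecipitation followed by sequencing (ChIP-seq) from HEK293, a human embryonic kidney cell line. Cells carried a retrovirus for FLAG-tagged WBM-MYC, a retrovirus for FLAG-tagged WT-MYC, or the empty vector, and anti-FLAG M2 agarose pulled down the tag. WDR5 itself was precipitated with an anti-WDR5 antibody from HEK293 cells that the labels do not describe as transduced, with purified rabbit IgG as the negative control. Each of the 5 groups had 3 independent biological replicates, 15 libraries in all. The MYC studied is an added, tagged protein, the labels mention no removal of the cells' own MYC, and WDR5 was mapped in other cultures than MYC. One peak list each was used for WBM-MYC (690 peaks), WT-MYC (2527 peaks) and WDR5 (17171 peaks). Replicates cannot be separated in them, so intervals and tests cover counting over peaks and not the spread between cultures. Read depth is unknown, no list carries a score, and a site missing from a list may have been bound below the authors' threshold. Coordinates are hg19 and counted from 1. No peak list of the vector or IgG libraries was used here.

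MYC is a transcription factor that binds DNA with its partner MAX, preferentially at E-box motifs, and drives genes of growth, ribosome production and metabolism. WDR5 is a scaffold protein of the MLL/SET1 histone methyltransferase complexes, which methylate lysine 4 of histone H3 at active promoters, and it binds MYC directly. A MYC that cannot bind WDR5 keeps its own DNA-binding domain and its pairing with MAX. The subject of what follows is the WBM-MYC sites that no WT-MYC peak covered to the threshold, most of which no WT-MYC peak touched.

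The unmatched peaks were of 2 kinds. A small part, 29 of the 222, shared some bases with a WT-MYC peak but under the threshold. The other 193 shared none, and most of these lay more than 10 kb from any WT-MYC peak. Gaps from other genome positions to WT-MYC were not computed. Edge to edge, the gap of the 193 to the nearest WT-MYC peak ranged from 30 bp to 6.83 Mb, with a median of 75.4 kb and an interquartile range of 27.98 to 266.5 kb. Within 500 bp lay 10 of them, between 500 bp and 5 kb another 6, and between 5 and 10 kb another 7. The gap was 10 to 100 kb for 88 peaks, 100 kb to 1 Mb for 67 and over 1 Mb for 15. Beyond 10 kb from any WT-MYC peak thus lay 170 of the 222 unmatched peaks (76.6%). The classes are of unequal width, so their counts do not compare densities.

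**Figure D1:**
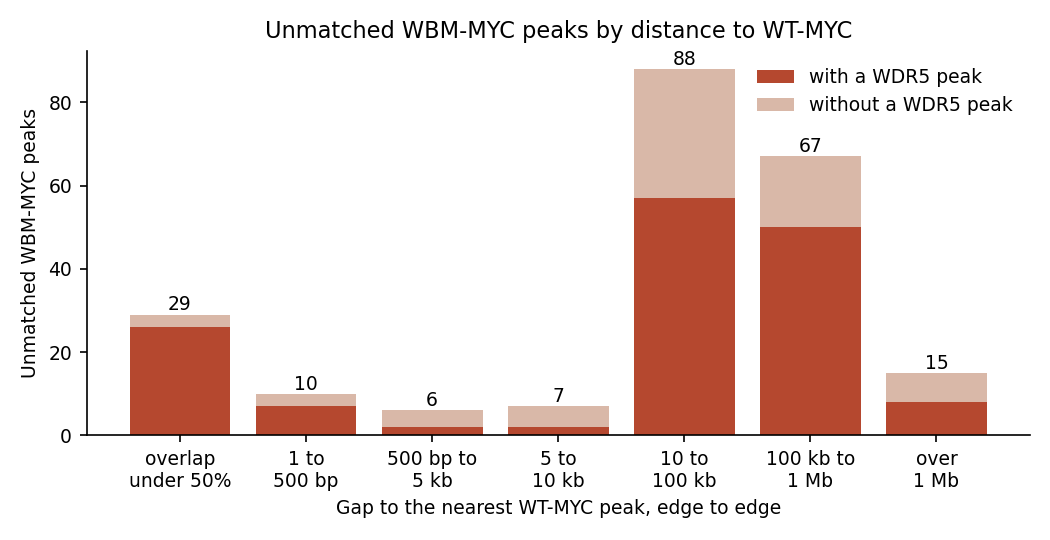
Number of unmatched WBM-MYC peaks (vertical axis) by the gap in bp, kb or Mb to the nearest WT-MYC peak, split by whether the peak overlapped a WDR5 peak. The classes from 10 kb to 1 Mb hold 88 and 67 peaks, and those from 500 bp to 10 kb hold 6 and 7.

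The 29 peaks with part overlap were split by the width of the WT-MYC peak they faced. In 17 the WT-MYC peak was itself narrow, 124 to 226 bp wide, so it could not cover 228 bp, the width that 50% of a WBM-MYC peak requires. Their nearest WT-MYC centre lay 4 to 70 bp away, with a median of 18.5 bp, and the covered share was 27.2 to 49.6%. By position these 17 are coincident sites that the width rule places among the unmatched. In the other 12 the WT-MYC peak had its list's usual width of 496 bp and was displaced, with a nearest centre 253 to 428 bp away and a covered share of 10.5 to 48.9%. Matched peaks had a WT-MYC centre at a median distance of 29 bp, and at 245 bp at most. For a WT-MYC peak of 496 bp, the 50% rule itself sets the centre distance at which a peak becomes unmatched. The 253 bp minimum and the 245 bp maximum lie on either side of that distance by the rule and are no finding about the sites. Narrow WT-MYC peaks were rare in their own list: 31 of 2527 were under 228 bp, and 19 of these touched a WBM-MYC peak. All 222 unmatched peaks were 456 bp wide, as were 463 of the 468 matched ones.

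**Figure D2:**
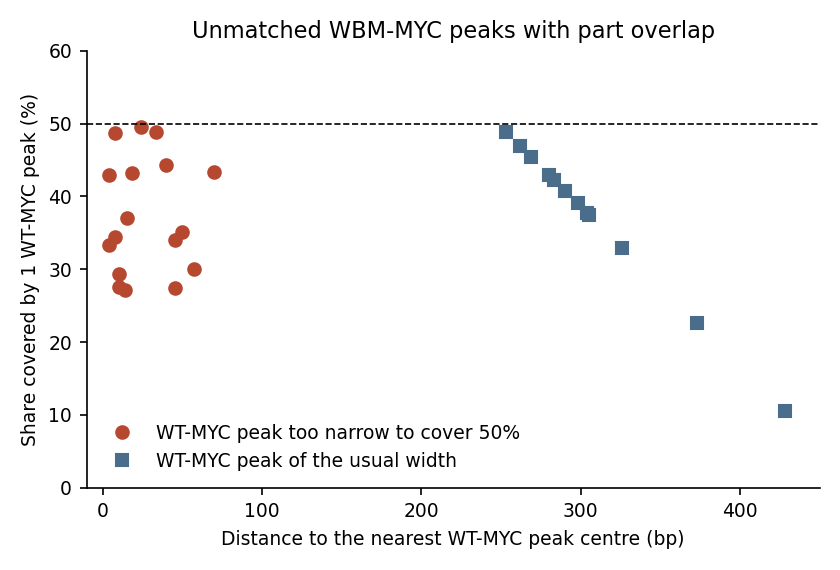
The 29 unmatched WBM-MYC peaks with part overlap, by distance to the nearest WT-MYC peak centre in bp (horizontal axis) and the percentage of the peak covered by 1 WT-MYC peak (vertical axis; the dashed line is the 50% threshold). Circles are the 17 with a WT-MYC peak under 228 bp wide and squares the 12 with one of 496 bp. No peak lies between 70 and 253 bp, and for squares the 50% threshold sets the lower limit of the centre distance.

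At the threshold itself, the unmatched peaks covered most were chr1:63988749-63989204 (49.6%), chr22:37957655-37958110 (48.9%) and chr8:146017206-146017661 (48.9%). The matched peaks covered least were chr1:155242918-155243373 (50.7%), chr6:165462784-165463239 (51.1%) and chr1:227058495-227058950 (52.0%). Each of these 6 peaks overlapped a WDR5 peak. The first and second unmatched ones faced WT-MYC peaks of 226 and 223 bp, with centres 24 and 33.5 bp away, and the third faced a displaced one at 253 bp.

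Most unmatched sites lay on WDR5 peaks, but fewer than among matched sites. Of the 222 unmatched peaks, 152 shared at least 1 bp with a WDR5 peak (68.5%, exact Clopper-Pearson 95% interval 61.9 to 74.5%), against 369 of the 468 matched peaks (78.8%, 74.9 to 82.5%). The background share over all WBM-MYC peaks was 75.5%, and over all WT-MYC peaks 82.9%. The unmatched share was lower by 10.4 percentage points (difference -10.4, Newcombe 95% interval -17.6 to -3.41), with an odds ratio of 0.583 (0.401 to 0.850; Fisher's exact test over peaks, two-sided, p = 0.00436). Without chromosome 9 the shares were 74.7% for unmatched and 81.4% for matched peaks, and the difference of -6.67 points (-13.98 to 0.113) did not pass the test (Fisher's exact p = 0.0574). The difference likewise missed the threshold when matching required 75% coverage (-6.59 points, Fisher's exact p = 0.0541) and within the first 50% of the WBM-MYC list (-9.52 points, p = 0.0967).

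**Figure D3:**
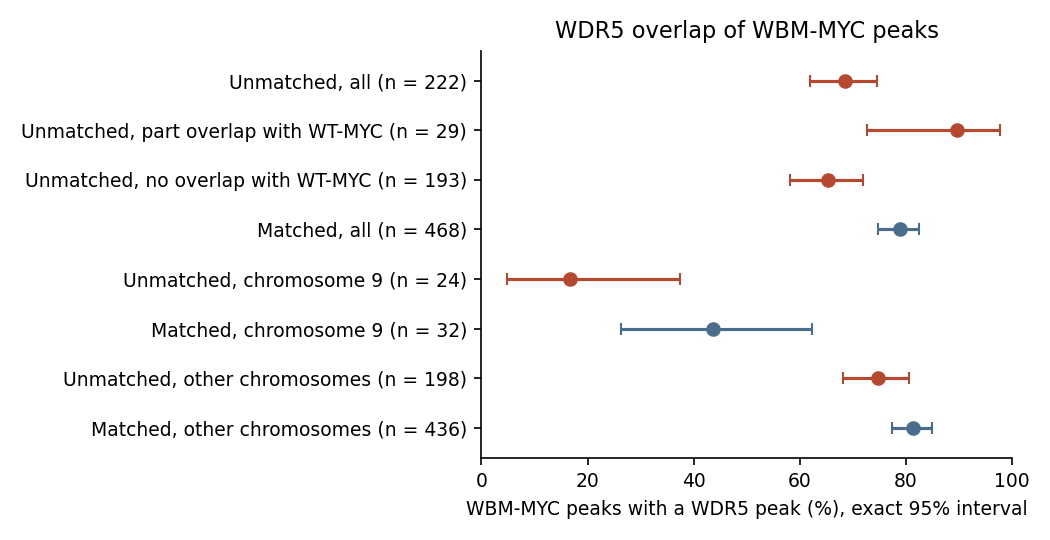
Percentage of WBM-MYC peaks with a WDR5 peak (horizontal axis) for unmatched and matched peaks and their subsets; points are shares and bars exact 95% intervals over peaks. Unmatched peaks sit at 68.5% and matched peaks at 78.8%, and on chromosome 9 both are lower, at 16.7 and 43.8%.

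WDR5 lay on 26 of the 29 peaks with part overlap (89.7%, 72.6 to 97.8%) and on 126 of the 193 with none (65.3%, 58.1 to 71.98%), a contrast noticed in the data and not tested. By geometry WDR5 was found at 15 of the 17 sites with a narrow WT-MYC peak and at 11 of the 12 displaced ones. Leaving out the part overlaps was chosen after seeing the data. The difference between unmatched and matched peaks was then -13.6 points (Fisher's exact p = 0.000367). Removing a class with more WDR5 from the unmatched side alone could only widen the difference, so this p-value adds no support. Among peaks without overlap, WDR5 did not fall away steadily with distance from WT-MYC. It lay on 7 of the 10 within 500 bp, on 4 of the 13 from 500 bp to 10 kb, on 57 of 88 from 10 to 100 kb (64.8%, 53.9 to 74.7%), on 50 of 67 from 100 kb to 1 Mb (74.6%, 62.5 to 84.5%) and on 8 of 15 beyond. The median gap to WT-MYC was 86.9 kb for those with WDR5 and 49.5 kb for those without, with intervals of 59.5 to 137.7 and 38.95 to 95.9 kb that overlap.

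Where WDR5 was present, its peak and the unmatched WBM-MYC peak had centres close together. The nearest WDR5 centre lay a median of 88.8 bp away for unmatched peaks (interquartile range 34.4 to 176 bp, n = 152) and 79.5 bp for matched peaks (35 to 138.5 bp, n = 369), and the intervals of these medians, 64 to 112.5 and 69.5 to 89.5 bp, overlap. The WDR5 peak covered a median of 85.2% of an unmatched peak and 94.1% of a matched one. Coverage depends on the width of the WDR5 peak as well as on its position, and was not compared at equal width. WDR5 peaks under unmatched sites had a median width of 487 bp (95% interval of the median 459 to 548 bp), against 582 bp under matched sites (546 to 605 bp); over all WDR5 peaks the median was 419 bp. Their median line in the WDR5 list was 3104 (2502 to 3882), against 2023 (1666 to 2426) under matched sites and 8586 over the whole list. No source used here says how the lists are ordered. Differences in width and line were not tested. A WDR5 peak that covered 50% of the WBM-MYC peak was found for 132 unmatched peaks (59.5%) and 345 matched ones (73.7%).

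Of the 126 sites with WDR5 and no WT-MYC overlap, 123 had no WT-MYC peak on the WDR5 peak either, so mutant MYC and WDR5 were called there without wild-type MYC. The choice of members largely sets this number, as it does the 368 of 369 matched sites where a WDR5 peak also touched WT-MYC. The first sites with WDR5 and without any WT-MYC overlap, in file order, were chr6:119558395-119558850, chr15:75230042-75230497 and chr4:146019444-146019899, with gaps to WT-MYC of 158.0, 47.4 and 520.3 kb. Their WDR5 peaks were 624, 423 and 506 bp wide, with centres 33, 78.5 and 284 bp from the WBM-MYC centre. The first 3 peaks with part overlap and WDR5 were chr1:63988749-63989204, chr12:49454412-49454867 and chr6:114292407-114292862. Each of these faced a narrow WT-MYC peak, of 226, 125 and 160 bp.

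Neither a WT-MYC nor a WDR5 peak touched 67 unmatched peaks, and 3 more had part of a WT-MYC peak but no WDR5. Of these 70 sites without WDR5, 11 lay within 1 kb of a WDR5 peak, 6 between 1 and 10 kb, and 53 beyond 10 kb. Within 1 kb counted as present, WDR5 was at 73.4% of unmatched and 80.1% of matched peaks, a difference of -6.70 points (Fisher's exact p = 0.0498). Of the 99 matched peaks without WDR5, 6 had one within 1 kb and 83 lay beyond 10 kb. Beyond 100 kb from WDR5 lay 30 of the 70 unmatched and 29 of the 99 matched peaks. Chromosome 9 held 20 of those 70 and 18 of those 99. The counts beyond 100 kb were not compared without it. More than 10 kb from every WT-MYC and every WDR5 peak stood 43 unmatched peaks, 13 of them on chromosome 9, with overlapping peaks counted separately. The first with neither a WT-MYC nor a WDR5 peak, in file order, was chrX:136520265-136520720 (5.56 Mb from WT-MYC and 127.1 kb from WDR5). Next came chr8:145560165-145560620 (44.9 and 36.97 kb) and chr16:14580649-14581104 (142.6 and 142.7 kb). Those with part of a WT-MYC peak and no WDR5 were chr9:136282932-136283387, chr9:138392534-138392989 and chr7:1513619-1514074, at 376.3, 603.7 and 14.4 kb from WDR5.

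The most isolated sites were chr13:60970215-60970670, at 6.83 Mb from the nearest WT-MYC peak, chr4:158141340-158141795 at 6.27 Mb, and the X-chromosomal site above at 5.56 Mb. The first of these lay on a WDR5 peak of 408 bp, with centres 225 bp apart, while the chromosome 4 site was 143.7 kb from WDR5. Of all 15 unmatched peaks more than 1 Mb from WT-MYC, on 8 chromosomes, 8 lay on a WDR5 peak, 2 were within 1 kb of one, and 5 were more than 100 kb from any. Among those 5, chr2:91816011-91816466 and chr2:91816225-91816680 overlap each other and make 1 site. They are named only for that overlap.

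Close to WT-MYC, the 10 unmatched peaks with a gap of 30 to 484 bp (median 316 bp) were mostly separate from matched sites. A matched WBM-MYC peak stood within 1 kb of 3 of them. WDR5 lay on 7 of the 10, and in 3 cases a WDR5 peak under the site also touched WT-MYC. The narrowest gap, 30 bp, was at chr1:113498776-113499231, a site named after its value was seen. The WDR5 peak there, 765 bp wide, overlapped both MYC peaks.

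Unmatched peaks were found on all 23 chromosomes of the list. Among the 19 chromosomes with at least 10 WBM-MYC peaks, the unmatched share ran from 22.2% on chromosome 19 (12 of 54, exact interval 12.04 to 35.6%) to 44.0% on chromosome 15 (11 of 25, 24.4 to 65.1%). The exact interval held the overall 32.2% on each of the 19, and chromosomes were not compared with each other. Chromosome 1 held the most unmatched peaks, 31, of which 28 had WDR5, against 70 of its 80 matched peaks. There the WDR5 share was higher among unmatched peaks, opposite to the difference over all peaks. It was also higher among unmatched peaks on chromosomes 2, 4, 8, 11, 12 and 15, equal on 18, 21 and 22, and lower on the rest. Most of these chromosomes hold few WBM-MYC peaks, and the orders were not tested.

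On chromosome 9, most of the sites without WDR5 lay at the end of the chromosome. The chromosome held 24 unmatched and 32 matched peaks, and WDR5 lay on 4 of the 24 (16.7%, 4.74 to 37.4%) and on 14 of the 32 (43.8%, 26.4 to 62.3%). From 135 Mb to its end the chromosome held 16 unmatched WBM-MYC peaks, none with WDR5, and 17 matched ones, 2 with WDR5. The gaps of those 16 to the nearest WDR5 peak were 76.5 kb to 1.30 Mb. That stretch held 13 WDR5 and 51 WT-MYC peaks. Before 135 Mb, 4 of 8 unmatched and 12 of 15 matched peaks had WDR5. Without the stretch the WDR5 shares were 73.8% for unmatched and 81.4% for matched peaks, a difference of -7.59 points (Fisher's exact p = 0.0302). Whether WDR5 was absent there or its peaks were missing from the list was not tested.

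**Figure D4:**
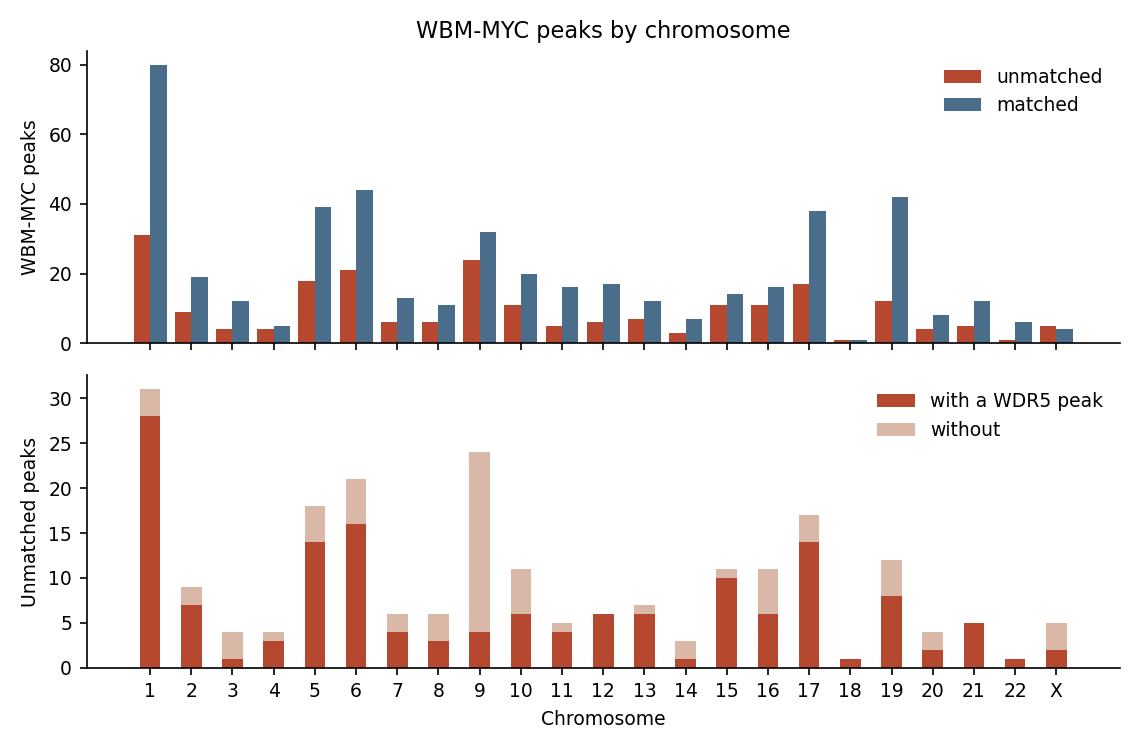
Top, numbers of unmatched and matched WBM-MYC peaks on each chromosome; bottom, the unmatched peaks split by WDR5 overlap. Chromosome 9 has 24 unmatched peaks, of which 4 overlap a WDR5 peak, and chromosome 1 has 31, of which 28 do.

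Most unmatched peaks stood alone. Another WBM-MYC peak stood within 10 kb of 20 unmatched peaks (9.01%, 5.59 to 13.6%) and of 32 matched ones (6.84%, 4.72 to 9.52%), and within 100 kb of 27.9 and 27.1%. Overlapping another WBM-MYC peak were 7 unmatched and 17 matched peaks, which are not independent sites. Linked by gaps of at most 100 kb, unmatched peaks formed 4 groups of 3 or more. On chromosome 15, chr15:75230042-75288002 held 3, all with WDR5, and no WT-MYC peak inside, but 2 of the 3 overlap each other on the same WDR5 peak and make 1 site. On chromosome 16, chr16:30366731-30457160 and chr16:30645728-30798861 held 4 each, 2 of each with WDR5, together with 4 and 3 WT-MYC peaks. On chromosome 9, chr9:139323340-139423389 held 4, with 1 WT-MYC peak and no WDR5 peak inside. The 5-Mb window from 30 to 35 Mb of chromosome 16 held 8 unmatched and 9 matched peaks (47.1% unmatched). The window from 135 to 140 Mb of chromosome 9 held 13 and 9 (59.1%), against 32.2% over all WBM-MYC peaks. Among windows with at least 10 WBM-MYC peaks, these had the highest unmatched shares. These groups and windows were picked out after their values were seen, and groups of matched peaks were not formed.

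Along the WBM-MYC list, unmatched peaks became more frequent towards the end. Among the first 69 peaks in file order 12 were unmatched (17.4%, 9.32 to 28.4%), and among the last 69 there were 35 (50.7%, 38.4 to 62.98%). The median line was 441.5 for unmatched peaks (95% interval 386 to 466) and 304.5 for matched ones (272 to 337). The kinds differed: peaks with part overlap had a median line of 176 (100 to 294). Those with no overlap had 476.5 (442 to 516) with WDR5 and 408 (342 to 471) without it. Of the 12 unmatched peaks among the first 69, 7 had part overlap, against 1 of the 35 among the last 69. Near the head of the list, then, unmatched peaks were often sites that WT-MYC touched, and near its end they were almost all free of it.

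In each quartile of the list the WDR5 share was lower among unmatched than among matched peaks. It was 63.3% against 69.9% in the first quartile, 65.5% against 79.5% in the second, 67.2% against 88.1% in the third and 74.0% against 80.8% in the last. Only the third passed its own test (Fisher's exact p = 0.518, 0.0593, 0.00134 and 0.353, not adjusted). Combined over quartiles, the conditional estimate of the common odds ratio was 0.511 (0.345 to 0.755, p = 0.000572 by the exact conditional test, two-sided). Without chromosome 9 it was 0.594 (0.383 to 0.923, exact p = 0.0156).

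**Figure D5:**
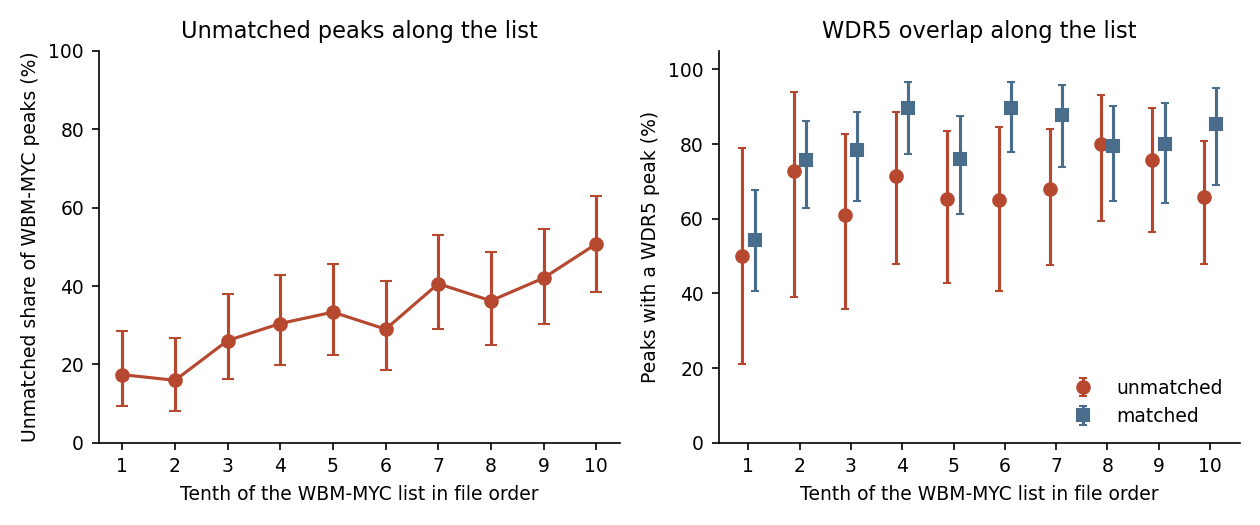
Left, the percentage of WBM-MYC peaks that were unmatched in each of 10 equal parts of the list in file order; right, the percentage of unmatched and matched peaks with a WDR5 peak in the same parts. Bars are exact 95% intervals over peaks; the unmatched share is 17.4% in the first part and 50.7% in the last.

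Viewed from the wild-type list, 2027 of 2527 WT-MYC peaks were in turn not covered to 50% by any WBM-MYC peak, and WDR5 lay on 1702 of these (83.97%, 82.3 to 85.5%). The mutant-side share was 68.5% (61.9 to 74.5%). Over all peaks of each list the shares were 82.9% for WT-MYC and 75.5% for WBM-MYC, so the whole lists differed as well. The uncovered WT-MYC peaks lay slightly above their list's share, and the unmatched WBM-MYC peaks below theirs. Uncovered and covered WT-MYC peaks were not compared by a test. The difference between the wild-type and mutant sides was not tested, since the lists differ in length and their thresholds are unknown.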

How the data were processed

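The authors deposited 1 peak list per group for WBM-MYC, WT-MYC and WDR5, each with 3 columns (chromosome, start, end), per the files, and no score. The tools CASAVA 1.8.2 and Bowtie 0.12.7, and the build hg19, are named in the submitters' processing notes, without their role. How peaks were called, at what threshold and over which libraries is not given in the sources used here.

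Gaps are edge to edge, and a shared base counts as overlap. Shares have exact 95% intervals, differences Newcombe intervals, and medians order-statistic intervals. Fisher's exact test used scipy 1.17.1, and its code and the overlap code were tested on simulated data. Neighbouring peaks are not independent, so p-values over peaks can be too small. The members, the chromosome 9 stretch and all lists were chosen with earlier results of these data known. Regions named follow a rule: the first 3 by file order in each class, the 3 farthest, and the 3 on each side of the threshold, other regions being marked. The gene and promoter tables at hand are GRCh38, and peaks on chromosome 9 run 2303434 bp past its last gene there. No gene was therefore assigned, and no sequence or E-box was read.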

Additional observations from a re-analysis of the deposited data

How the results depend on the processing

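Of 38 alternatives for the WDR5 difference between unmatched and matched peaks, all kept its sign (range -14.3 to -6.59 percentage points), and 35 kept it past the test. The 3 that did not were 75% coverage (-6.59 points, Fisher's exact p = 0.0541), the first 50% of the WBM-MYC list (-9.52, p = 0.0967) and removal of chromosome 9 (-6.67, p = 0.0574). Leaving out any of the 22 other chromosomes gave -12.1 to -9.24 points. Of the 35 that passed, 21 only left out 1 autosome other than chromosome 9, so they share most peaks with the main comparison. WDR5 within 1 kb passed narrowly (-6.70 points, Fisher's exact p = 0.0498), with an odds ratio interval of 0.464 to 1.02. The number of unmatched peaks was 193 at the 1 bp rule, 195 at 25%, 251 at 75% and 208 when centres within 228 bp counted as a match. Their WDR5 share was 59.5% when WDR5 had to cover 50% of the peak, 58.6% with the first 50% of the WDR5 list and 74.7% without chromosome 9, and within the interval of the 68.5% in the other alternatives. The median gap of all 222 to WT-MYC, 53.1 kb, was 75.4 kb at the 1 bp rule. Alternatives for centres, for the end of chromosome 9, for part overlaps and for strata without chromosome 9 were chosen after seeing the data. No paired analysis was possible because each group with a peak list has only 1, and for the same reason no replicate could be left out. Unknown depth limits every statement that a peak is missing from a list.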
